A study of Mus musculus with 6 samples.

Results

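The AP-1 and immediate early genes were followed in mouse liver under endotoxin. They were 10 named genes, chosen by symbol: Fos, Fosb and Fosl2 of the Fos family, Jun, Junb and Jund of the Jun family, Egr1, Ier2, Ier3 and Atf3. Each had 1 row among the 19613 rows of the deposited table, and 9 of the 10 passed the filter on low values, which asked for 3 libraries of the 6 with an FPKM of 1 or more and kept 9218 rows in all. Fosb did not pass. The groups were 3 liver libraries from knockout mice (KO) and 3 from wild-type mice (WT), and mice of both genotypes had received lipopolysaccharide (LPS, bacterial endotoxin) at 15 mg/kg by intraperitoneal injection 6 h before sampling. No untreated liver was analysed here, so the values show levels under LPS and not induction by it. The labels give no strain, sex or age, and whether each library is a different mouse is not stated there. The p-values therefore speak only of the spread between these 6 libraries, which may be technical.

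AP-1 is a dimeric transcription factor. Fos proteins pair with Jun proteins through a leucine zipper, and Jun proteins can also pair among themselves or with ATF proteins such as ATF3. Immediate early genes are transcribed within minutes of a stimulus from factors that are already in the cell, among them SRF with its ELK partners, CREB and ATF2, which MAP kinases activate, and their mRNAs are short-lived. In mouse liver, Jun is known for its part in hepatocyte survival and regeneration, and Toll-like receptor 4, the LPS receptor, reaches these genes through the MAP kinase and NF-kB pathways.

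At 6 h after LPS the level of every tested member differed between genotypes by less than the test could call. Of the 9 tested members, 0 passed an adjusted p of 0.05 in limma after scaling between libraries, where 1.07% of all tested genes passed. Unadjusted p-values under 0.05 were found for 2 members, Jun with a log2 fold change of 0.55 and Ier3 with one of -0.47, against 14.1% of all tested genes. The other 7 lay between -0.18 (Ier2) and 0.05 (Atf3). The median over the 9 was -0.06, beside -0.00498 over all tested genes. Limma-voom on the whole reads behind the values also called 0 of the 9. In bulk tissue, fewer cells of a type and less RNA per cell cannot be told apart. Fold changes are KO minus WT on the log2(FPKM + 1) scale. FPKM is a fragment count corrected for gene length and library size, and the scaling divides each library by a median-of-ratios factor. The whole reads recovered from the values, the smallest whole numbers that give them, came to between 26010585 and 44141095 per library.

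Levels kept nearly the same order in all libraries. Junb was the most abundant member in each of the 6. Ier3, Ier2 and Egr1 followed in that order in 5 libraries, and in KO replicate 1 Ier2 stood above Ier3. Jund and Jun came next, with Jun above Jund in KO replicates 2 and 3 and below it in the other 4. Atf3 was seventh throughout. Fosl2 stood above Fos in all libraries but KO replicate 1, where Fos stood above Fosl2, and Fosb was last. FPKM is a value per length, so these levels can be set side by side. In WT the scaled mean of Fosl2 was 5.40 ± 0.463 FPKM and that of Fos 4.22 ± 0.878 FPKM, while Jund and Jun had 30.6 ± 7.69 and 20.4 ± 3.44 FPKM (SD, n = 3). In KO, Jun (30.4 ± 6.16 FPKM) and Jund (29.2 ± 6.67 FPKM) did not differ beyond their spread, nor did Ier3 (69.6 ± 7.53 FPKM) and Ier2 (59.5 ± 11.5 FPKM, SD, n = 3).

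**Figure D1:**
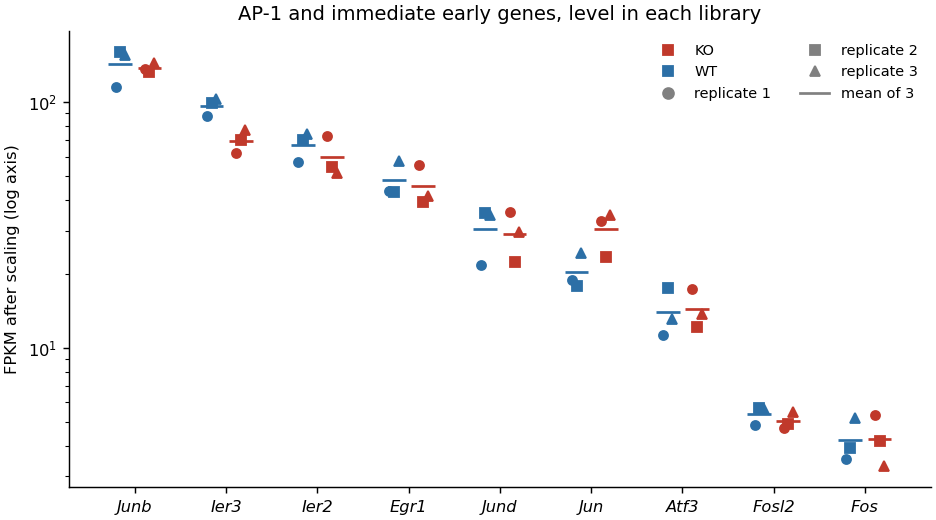
Scaled FPKM (log axis) of the 9 tested members in each library, wild type in blue and knockout in red, the symbol giving the replicate and the bar the mean of 3. Libraries of both genotypes overlap for every member except Ier3, where the 3 KO libraries lie between 61.8 and 76.8 FPKM and the 3 WT libraries between 87.8 and 103 FPKM.

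Within the Jun family, Jun was the member with the largest positive value. Jun codes for the c-Jun subunit, which is activated by JNK kinases and binds its own promoter. Its scaled FPKM was 18.9, 17.9 and 24.3 in WT replicates 1 to 3 and 32.9, 23.3 and 34.8 in KO replicates 1 to 3. KO replicates 1 and 3 stood above all WT libraries, while KO replicate 2 lay just under WT replicate 3, so the groups overlapped. The KO mean of 30.4 ± 6.16 FPKM stood to the WT mean of 20.4 ± 3.44 FPKM (SD, n = 3) in a ratio of 1.49. The log2 fold change was 0.55 (SE 0.18, unadjusted 95% interval 0.13 to 0.96), with an adjusted p of 0.23 in limma. Jun rested on 1771 to 5339 reads per library. It shares 232 of its 3189 exonic bases with the antisense transcript Junos, whose scaled FPKM was between 0.0706 and 0.162 in all libraries. How the authors' counting treated strand is not stated in these sources, and without strand, reads of the shared stretch cannot be told apart.

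The promoter of Jun is shown because Jun had the largest positive value and because its sites for Jun and ATF dimers are known. The window runs from 250 bases before the RefSeq start to 50 bases after it, on GRCm38.p6, chr4:95052173-95052472, minus strand, printed in the direction of transcription. Capitals mark TTACCTCA (positions -164 to -157 from the start) and TGACATCA (-45 to -38), and both forms were searched on both strands.
Jun: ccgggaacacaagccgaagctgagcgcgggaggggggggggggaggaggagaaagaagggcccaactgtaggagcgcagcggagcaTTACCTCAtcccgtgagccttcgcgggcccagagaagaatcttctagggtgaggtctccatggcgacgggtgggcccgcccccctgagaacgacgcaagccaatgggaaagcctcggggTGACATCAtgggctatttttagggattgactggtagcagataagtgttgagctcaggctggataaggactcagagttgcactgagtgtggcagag
These forms were picked because they are known in this promoter, so their presence is no result. Either form occurred in 4.47% of the 32851 promoter windows in the table. The consensus AP-1 site TGANTCA with C or G at N occurred in 5.2% of the windows and the CREB site TGACGTCA in 1.79%, and neither was in the Jun window. Promoter windows were at hand for 8 of the 10 members, all but Egr1 and Ier2.

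Junb and Jund, which code for subunits that activate transcription more weakly than c-Jun on most AP-1 sites, had KO means close to their WT means, with ratios of 0.960 for Junb and 0.955 for Jund. Junb had a scaled FPKM of 115, 160 and 156 in WT replicates 1 to 3 and of 136, 133 and 144 in KO replicates 1 to 3. All 3 KO libraries lay inside the WT range. The log2 fold change was -0.04 (SE 0.16, adjusted p = 0.94). Jund, the family member usually expressed without a stimulus, had values of 21.7, 35.3 and 34.7 FPKM in WT and of 35.6, 22.3 and 29.7 FPKM in KO. WT replicate 1 and KO replicate 2 were low and the other 4 libraries high, so the split did not follow genotype. Its log2 fold change was -0.06 (SE 0.23, 95% interval -0.58 to 0.47, adjusted p = 0.94). Exons of Junb share 173 of their 2301 bases with Prdx2 on the opposite strand (mean scaled FPKM 21.3 in WT and 19.9 in KO). Those of Jund share 877 of 1668 bases with the antisense gene Gm11175, which has no row in the deposited table. Without strand, reads of these stretches cannot be told apart either. The uncertainty is larger for Jund than for Jun, since the shared part is larger and the level of Gm11175 is unknown.

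The Fos family stood lower than the Jun family and its 3 members did not separate the genotypes. Fos, whose product c-Fos forms AP-1 only with a partner, had a scaled FPKM of 3.53, 3.91 and 5.21 in WT replicates 1 to 3 and of 5.34, 4.19 and 3.30 in KO replicates 1 to 3. The highest and the lowest library were both KO, with WT in between. The WT mean was 4.22 ± 0.878 FPKM and the KO mean 4.28 ± 1.02 FPKM (SD, n = 3), with a log2 fold change of 0.01 (SE 0.17, 95% interval -0.39 to 0.41, adjusted p = 0.99). Between 244 and 453 reads per library stood behind these values.

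Fosl2 codes for FRA-2, a Fos family protein of later and more lasting expression that lacks the strong activation domain of c-Fos. Its values were 4.87, 5.71 and 5.62 FPKM in WT and 4.73, 4.91 and 5.50 FPKM in KO. This was the steadiest member, with a coefficient of variation of 8.31% over all 6 libraries, and the groups overlapped. The log2 fold change was -0.08 (SE 0.11, adjusted p = 0.80). Fosb, best known from neurons, was near the limit of detection. Its 6, 2 and 5 reads in KO replicates 1 to 3 and 6, 0 and 13 reads in WT replicates 1 to 3 correspond to at most 0.0775 FPKM as deposited. The 0 in WT replicate 2 allows up to 3 reads, or 0.0106 FPKM, from counting error alone. No difference in Fosb was detectable at this depth.

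The Fos window is shown as the textbook immediate early promoter, on GRCm38.p6, chr12:85473640-85473939, plus strand. Capitals mark the TATAAA sequence and, farther upstream, a match to the NF-kB consensus.
Fos: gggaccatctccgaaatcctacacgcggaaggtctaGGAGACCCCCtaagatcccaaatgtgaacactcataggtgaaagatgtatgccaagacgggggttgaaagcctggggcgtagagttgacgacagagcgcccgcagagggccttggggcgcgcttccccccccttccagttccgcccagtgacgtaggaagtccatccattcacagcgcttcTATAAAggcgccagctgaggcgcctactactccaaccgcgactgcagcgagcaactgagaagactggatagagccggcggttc
TATAAA occurred in 13.6% and the NF-kB consensus in 8.46% of all windows, both strands searched. The CArG box that SRF binds was found in 1.63% of windows and in none of the 8 member windows. Egr1 and Ier2 had no window to search. In Fos the known CArG box lies farther upstream than the window reaches.

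Egr1 codes for a zinc finger transcription factor that binds GC-rich promoter sites and is induced through SRF. Its scaled FPKM was 43.4, 42.9 and 57.7 in WT replicates 1 to 3 and 55.6, 39.3 and 41.4 in KO replicates 1 to 3. A single library of each genotype, WT replicate 3 and KO replicate 1, were high, and the other 4 lay between 39.3 and 43.4 FPKM. The WT mean was 48.02 ± 8.43 FPKM and the KO mean 45.4 ± 8.85 FPKM (SD, n = 3), with a log2 fold change of -0.08 (SE 0.18, 95% interval -0.49 to 0.33, adjusted p = 0.89). These values rested on 5721 to 8990 reads per library.

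Ier2 and Ier3 share a name but are not related proteins. Ier2 codes for a small nuclear protein of rapid induction. Its values were 57.1, 70.2 and 74.2 FPKM in WT replicates 1 to 3 and 72.7, 54.3 and 51.6 FPKM in KO replicates 1 to 3. KO replicates 2 and 3 stood under all WT libraries and KO replicate 1 was as high as the WT libraries 2 and 3. The log2 fold change was -0.18 (SE 0.17, adjusted p = 0.71).

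Ier3, also known as IEX-1, codes for a stress-inducible regulator of cell survival that is a target of NF-kB. Its values were 87.8, 99.2 and 103 FPKM in WT replicates 1 to 3 and 61.8, 70.1 and 76.8 FPKM in KO replicates 1 to 3. Every KO library lay under every WT library, which held for 1 of the 9 tested members and for 9.88% of all tested genes. The reverse, KO above WT, held for 0 of the 9 members and for 10.3% of all tested genes. The KO mean of 69.6 ± 7.53 FPKM stood to the WT mean of 96.8 ± 8.04 FPKM (SD, n = 3) in a ratio of 0.719. The log2 fold change was -0.47 (SE 0.14, unadjusted 95% interval -0.78 to -0.16), with an adjusted p of 0.17 in limma. An exact two-sided permutation test gave p = 0.1, the smallest that 3 libraries against 3 allow. As deposited, without scaling, the Ier3 groups overlapped and the fold change had the other sign (0.10, adjusted p = 0.71).

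The Ier3 window is shown because Ier3 had the largest negative value, on GRCm38.p6, chr17:35821463-35821762, plus strand. Capitals mark the match to the NF-kB consensus, on the minus strand at positions -92 to -83.
Ier3: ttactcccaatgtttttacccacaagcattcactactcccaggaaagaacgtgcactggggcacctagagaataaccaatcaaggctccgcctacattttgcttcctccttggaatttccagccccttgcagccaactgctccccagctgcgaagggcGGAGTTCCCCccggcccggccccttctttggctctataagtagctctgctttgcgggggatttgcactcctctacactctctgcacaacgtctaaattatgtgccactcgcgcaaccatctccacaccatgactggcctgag
Matches to this consensus were found in the windows of 4 members, Fos, Fosb, Fosl2 and Ier3. Of the 3 of these that were tested, Fos had a log2 fold change of 0.01, Fosl2 of -0.08 and Ier3 of -0.47. A match is a run of letters and not a measured binding site.

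Atf3 codes for a stress-induced factor that limits the transcription of cytokine genes in macrophages under LPS. Its scaled FPKM was 11.3, 17.6 and 13.1 in WT replicates 1 to 3 and 17.4, 12.2 and 13.7 in KO replicates 1 to 3. WT replicate 2 and KO replicate 1 were the high libraries, and the groups overlapped. The log2 fold change was 0.05 (SE 0.19, 95% interval -0.38 to 0.47, adjusted p = 0.94).

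**Figure D2:**
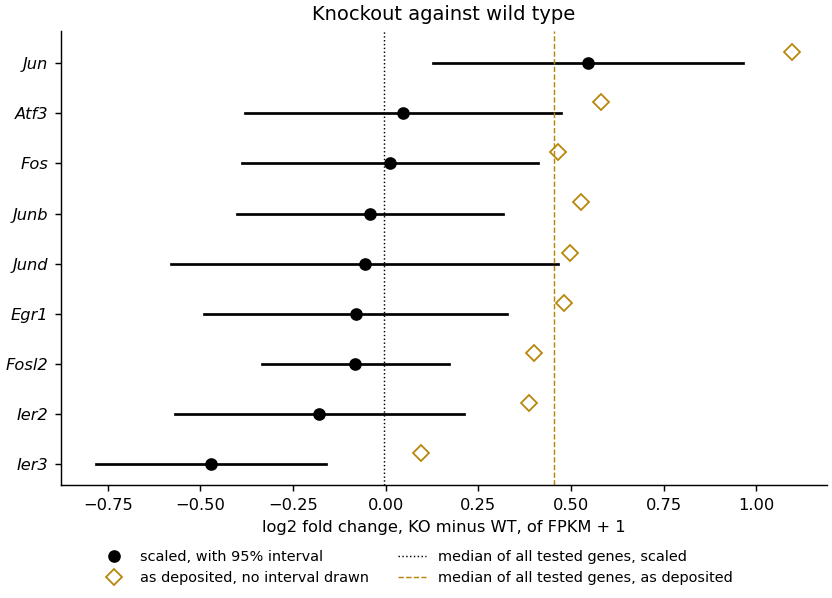
Log2 fold change (KO minus WT) of the 9 tested members after scaling, with unadjusted 95% intervals, and as deposited (open diamonds), beside the medians of all tested genes under both (dotted and dashed lines). The scaled intervals of 7 members include 0, and the deposited values sit around their own median of 0.45.

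The scaling sets where these values stand. As deposited, the median log2 fold change of all tested genes was 0.45, and all 9 members had positive values, from 0.10 (Ier3) to 1.10 (Jun). Jun (adjusted p = 0.000167) and Atf3 (0.58, adjusted p = 0.0492) passed, 2 of 9 members, where 29.3% of all tested genes passed, 2648 of them higher in KO and 55 lower. Against that median Jun stood higher and Ier3 lower, as after scaling.

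A measure that needs no scaling is the make-up of the Fos and Jun mRNA pool within a library. It was added after the values had been seen, when Jun was known to have the largest positive value. Junb made up between 63.4% and 71.8% of the summed FPKM of the 6 Fos and Jun genes. Jun made up 11.5%, 8.04% and 10.8% in WT replicates 1 to 3 and 15.3%, 12.5% and 16.005% in KO replicates 1 to 3. Every KO library stood above every WT library (14.6 ± 1.88% against 10.1 ± 1.84%, SD, n = 3). The exact two-sided permutation p was 0.1, the smallest possible, and no p over all genes exists for such a share. This separation is not evidence apart from the Jun values given above. With any 1 library left out, the difference of 4.48 percentage points ranged from 3.44 to 5.55. The shares of Junb, Jund, Fosl2 and Fos overlapped between genotypes, and the Fos family as a whole held 4.77 ± 0.415% in WT and 4.54 ± 0.431% in KO. The ratio of Jun to Ier3, the 2 members with the largest opposite values, was 0.215, 0.180 and 0.235 in WT and 0.533, 0.333 and 0.453 in KO. These groups did not overlap either, but the pair was picked for its difference and the ratio is a description.

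**Figure D3:**
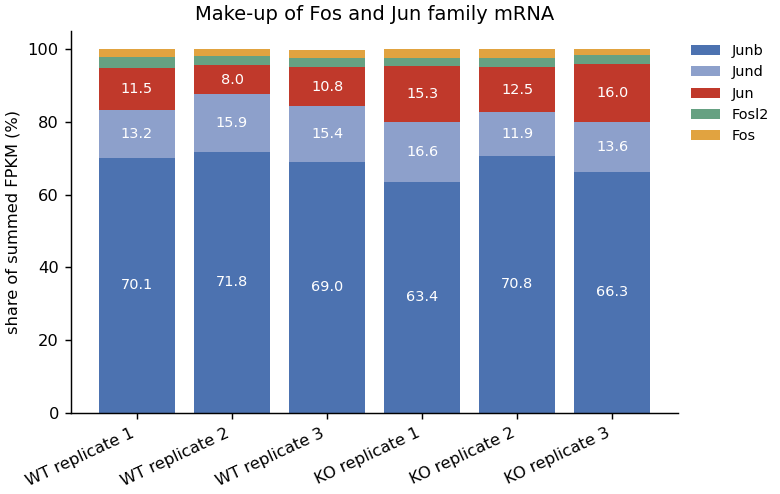
Share of the summed FPKM of the Fos and Jun genes in each library (stacked bars, %), Fosb too low to draw. The Jun segment is between 8.04% and 11.5% in WT libraries and between 12.5% and 16.005% in KO libraries, and Junb fills over 60% of every bar.

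Libraries of 1 genotype also differed among themselves. For 8 of the 9 tested members the ratio of the highest to the lowest library within WT or within KO exceeded the ratio of the genotype means. For Fos these ratios were 1.47 within WT and 1.62 within KO, beside 1.01 between the means. For Jund they were 1.63 and 1.60 beside 1.05, and for Atf3 1.56 and 1.43 beside 1.03. For Jun the ratio within KO was 1.4926 and that between the means 1.4916. The exception was Ier3, with 1.18 and 1.24 beside 1.39. A span of single libraries tends to exceed a ratio of means, so the count of 8 was favoured by the measure. The same count over all tested genes was not computed.

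Several members were high in the same libraries. Fos, Egr1 and Ier2 were each highest within KO in replicate 1 and highest within WT in replicate 3. KO replicate 1 lay above a gene's mean for 6 of the 9 members, WT replicate 2 for 6 and WT replicate 3 for 7. KO replicate 2 and WT replicate 1 lay above it for 1 member each, Fos in the former (by only 0.0006 in log2) and Ier3 in the latter. Such counts over all tested genes were not computed, so the pattern may not be particular to the members. What sets these libraries apart was not tested, and the labels give no batch, date or time of day.

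**Figure D4:**
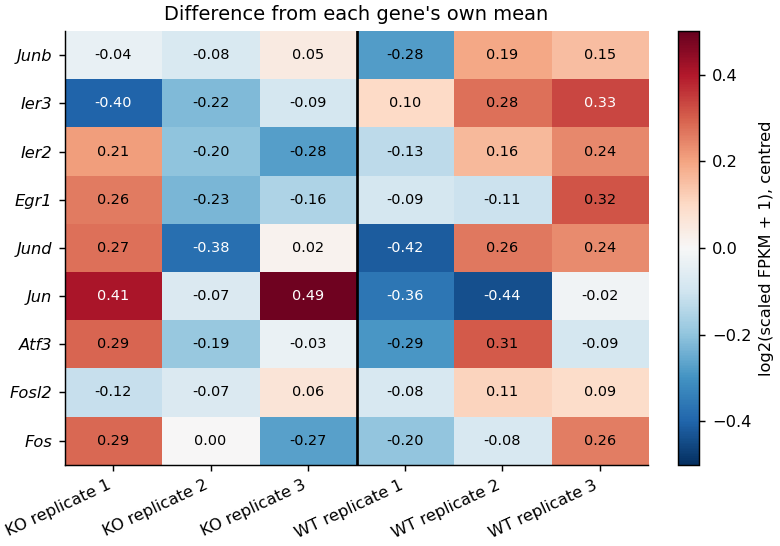
Difference of each library from the gene's own mean over 6 libraries, in log2(scaled FPKM + 1), red above and blue below, KO left of the line and WT right of it. KO replicate 1 and WT replicate 3 are red for Fos, Egr1, Ier2 and Jund, and Ier3 is the gene whose sign follows genotype in all 6 libraries.

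Other genes of the pathway are given by list, and no list was tested as a set. Over all tested genes, 1.07% passed and 14.1% had an unadjusted p under 0.05, which is the background for the counts that follow. Among 17 further bZIP genes that can enter AP-1 or related dimers, 14 were tested and 0 passed (3 had an unadjusted p under 0.05), with a median log2 fold change of -0.06. The lowest p-values belonged to Cebpg (0.42, SE 0.15, adjusted p = 0.27) and Atf2 (0.27, SE 0.10, adjusted p = 0.30). Atf2 codes for the partner of c-Jun on its own promoter. Its scaled FPKM was 3.94, 3.74 and 3.55 in WT and 4.59, 5.15 and 4.44 in KO, without overlap. KO above WT without overlap held for 10.3% of all tested genes, and Atf2 was named for its low p. Of 34 upstream kinases and promoter factors, 27 were tested and 0 passed (4 with an unadjusted p under 0.05), with a median of -0.06. Map3k5, the stress kinase ASK1, had the lowest p (-0.44, SE 0.10, adjusted p = 0.11), followed by Srf (0.39, SE 0.15, adjusted p = 0.30) and Mapk14, which codes for p38 alpha (0.35, SE 0.14, adjusted p = 0.31).

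Among other rapid response genes 39 of 51 were tested, 0 rose and 1 fell (6 with an unadjusted p under 0.05), with a median of 0.01. The gene that fell was Klf2, a zinc finger factor best known from endothelium under flow. Klf2 had a scaled FPKM of 26.3, 38.8 and 34.1 in WT and of 18.9, 16.5 and 13.3 in KO, without overlap (log2 fold change -0.98, SE 0.18, adjusted p = 0.0499). KO below WT without overlap held for 9.88% of all tested genes. The Klf2 call was at the threshold. It was lost as deposited (-0.43, adjusted p = 0.12) and without KO replicates 1, 2 or 3 or WT replicates 2 or 3 (adjusted p of 0.116, 0.104, 0.175, 0.144 and 0.132), and it held in 10 of 20 alternatives. Beside it, the summed level of the 9 sinusoidal endothelial markers was 24.7 to 31.7 FPKM in KO and 24.9 to 37.8 FPKM in WT. Of the 3 most abundant, Lyve1 (-0.22, adjusted p = 0.71) and Cdh5 (-0.15, adjusted p = 0.79) overlapped between genotypes. Stab2 did not, with 3.79, 4.41 and 3.83 FPKM in WT and 2.01, 1.67 and 2.87 FPKM in KO (adjusted p = 0.0888). Its log2 fold change of -0.67 was the lowest of the 7 tested endothelial markers, and such separation held for 9.88% of all tested genes. Whether endothelial content has a part in the Klf2 value was not tested. Plk2 (0.52, SE 0.11, adjusted p = 0.0828) and Trib1 (0.70, SE 0.23, adjusted p = 0.23) came next in the list.

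Of the 24 feedback genes on MAP kinases, EGR1 and unstable mRNAs, 19 were tested and 0 passed (3 with an unadjusted p under 0.05), with a median of 0.05. Dusp1, the phosphatase that switches off p38 and JNK, had values of 26.0, 38.8 and 21.03 FPKM in WT and of 14.1, 19.96 and 15.2 FPKM in KO. The groups did not overlap (-0.73, SE 0.22, adjusted p = 0.19). Neither did those of Dusp2 (-0.56, SE 0.16, adjusted p = 0.16) and Spred1, an inhibitor of RAS signalling (-0.32, SE 0.10, adjusted p = 0.19). KO below WT without overlap held for 9.88% of all tested genes, and these genes were named for the lowest p-values of the list. Among 29 genes described as AP-1 or EGR1 targets, 21 were tested, 0 rose and 1 fell (6 with an unadjusted p under 0.05), with a median of -0.04. It was Ccnd1, the gene of cyclin D1, with 5.13, 3.91 and 2.30 FPKM in WT and 0.860, 0.799 and 0.986 FPKM in KO (log2 fold change -1.30, SE 0.21, adjusted p = 0.0276). That call was lost without KO replicates 1, 2 or 3 or WT replicate 2 (adjusted p of 0.138, 0.0798, 0.0838 and 0.0935), and with no filter on low values (0.146). The collagenase gene Mmp13 (-0.72, SE 0.19, adjusted p = 0.13) and Mmp14 (-0.39, SE 0.12, adjusted p = 0.20) followed.

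The stress branch of ATF4 and CHOP, which induces Atf3 in many cells, had 11 of 12 genes tested, of which 1 rose and 0 fell (4 with an unadjusted p under 0.05). Its median was 0.18, with 6 genes above 0 and 5 below. Atf4 itself had -0.09, and Fgf21 had the lowest value, -0.43. Nupr1, a small stress-induced chromatin protein, had 3.56, 3.14 and 3.84 FPKM in WT and 7.13, 6.82 and 7.11 FPKM in KO (log2 fold change 0.83, SE 0.11, adjusted p = 0.0111, and 0.0712 and 0.0558 without KO replicates 1 and 3). Ddit3, the gene of CHOP, had 8.47, 10.9 and 14.1 FPKM in WT and 22.5, 22.5 and 18.2 FPKM in KO, without overlap (0.88, SE 0.18, adjusted p = 0.0760). KO above WT without overlap held for 10.3% of all tested genes, and Ddit3 and Sesn2 were named for low p-values. Sesn2 had 0.45 (SE 0.14, adjusted p = 0.21). Atf3 itself, with 0.05, overlapped between genotypes as described above, and whether its fold change differs from that of Nupr1 or Ddit3 was not tested.

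**Figure D5:**
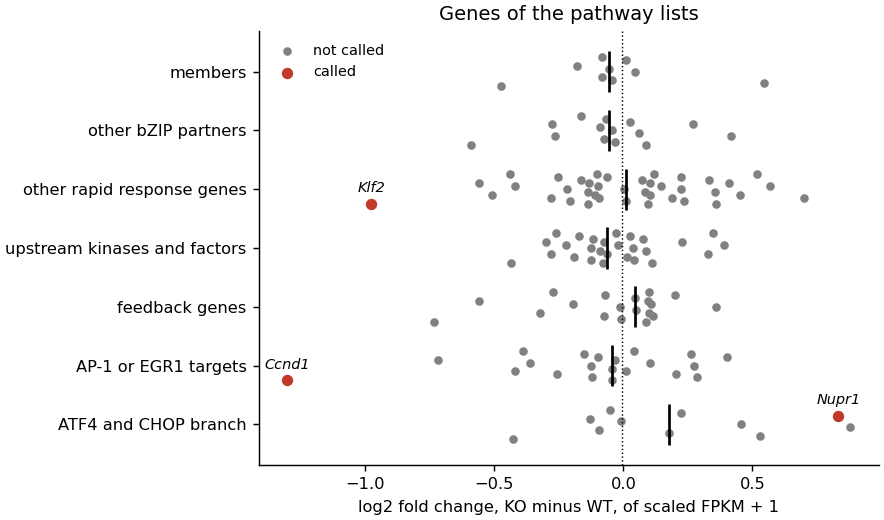
Log2 fold change (KO minus WT, scaled) of every tested gene in the pathway lists, called genes in red with their names and list medians as black bars. List medians lie between -0.06 and 0.18, and the called genes are Klf2, Ccnd1 and Nupr1.

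Hepatocyte markers were abundant in all 6 libraries. Alb had between 9996 and 15962 FPKM after scaling, and the 10 hepatocyte markers summed to 33165 to 38374 FPKM in KO and 35722 to 44111 FPKM in WT. Markers of other cells that express AP-1 genes were detected at lower levels. Their sums, which follow the most abundant genes, overlapped between genotypes. The 13 Kupffer cell and macrophage markers summed to 53.9 to 79.3 FPKM in KO and 57.9 to 83.2 FPKM in WT. The 10 neutrophil markers summed to 120.3 to 133 FPKM in KO and 116 to 175 FPKM in WT, the 9 stellate cell markers to 26.0 to 28.9 and 26.9 to 36.9, the 6 cholangiocyte markers to 39.7 to 74.9 and 41.5 to 62.2, and the 10 lymphocyte markers to 2.504 to 3.14 and 1.41 to 3.81. Of the tested genes in these 7 lists, 0 passed. Tested markers above and below 0 were 1 and 9 for hepatocytes, 3 and 6 for Kupffer cells and 1 and 6 for endothelium. They were 4 and 3 for neutrophils, 2 and 1 for cholangiocytes, 1 and 1 for stellate cells and 0 and 1 for lymphocytes. An unadjusted limma p under 0.05 was found for 3 Kupffer cell markers of 9, beside 14.1% of all tested genes. It was found for 1 marker each of the hepatocyte, endothelial and cholangiocyte lists and for 0 of the others. The cell type behind a member's level was not tested, nor was a difference in cell content between genotypes.

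The genes closest to a member in pattern were found by the root mean square difference of centred log2 values over the 6 libraries, among 9217 others. For Fos they were Dand5 (0.0711) and Tmem230 (0.0944), for Jun 1700123O20Rik (0.0638) and Tmem41a (0.0748), for Egr1 Tmem219 (0.0680) and Rcan1 (0.0789), and for Atf3 Mknk2 (0.0710) and Prox1os (0.0858). None of these was another member. None passed the test, which follows largely from the choice, since the members they were matched to were not called. How close the best of 9217 patterns would lie by chance was not tested. Rcan1, a calcineurin regulator, showed the Egr1 pattern at a similar level, with 55.1 FPKM in WT replicate 3, 50.8 FPKM in KO replicate 1 and 39.9 to 46.03 FPKM in the other 4 libraries.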

How the data were processed

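RNA sequencing of mouse liver gave 6 libraries, 3 KO and 3 WT, whose names in the labels match the table's columns. The submitters' processing notes name HISAT2 (2.0.5) and the builds hg38 and mm39, without roles. For the counting tool, annotation and strand setting nothing is stated in these sources. The authors deposited FPKM values, with no scaling between libraries on record. The gene that the knockout targets and 1 gene that the rule for named genes takes are not reported here.

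Rows that reached an FPKM of 1 in 3 or more libraries (9218) were divided by median-of-ratios factors computed over those rows (0.724 to 1.40) and, on log2(FPKM + 1), entered limma (version 3.58.1, R version 4.3.3, eBayes with trend, two-sided). Genotype was the only term and Benjamini-Hochberg adjustment ran over all 9218 rows. The added constant understates the change of low genes. Two-sided exact permutation tests used the 20 assignments of libraries. The members, the lists and the rule for named genes (all members, called genes and the 3 lowest p-values of each pathway list, the 3 most abundant markers of each cell type, and the 2 closest patterns of Fos, Jun, Egr1 and Atf3) were chosen with earlier results of these data known. Markers are given mostly as sums over their lists.

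FPKM values are whole reads times a step, and the smallest whole numbers that gave a row's values were taken as its reads. All 19613 rows gave whole reads to within 0.0001, 26010585 to 44141095 per library, on which limma-voom called 114 genes. A row whose reads share a common factor comes out too low. On simulated reads, 98.3% of 4964 genes were recovered exactly. Counts implied the GENCODE M21 exonic length for 8 of the 10 members exactly and to 0.131% for the other two. Intervals and floors on reads cover counting error only. The scripts were tested on simulated data. Promoter sequences are from RefSeq, GRCm38.p6, and were used for letters only, since the build behind the reads is not stated for certain.

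Same-numbered libraries were not taken as pairs, since the labels state no pairing (see the replicate block among the alternatives). Alternatives covered scaling, constant, filter, variance model, library weights, a replicate block, voom on reads and each library left out.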

Additional observations from a re-analysis of the deposited data

How the results depend on the processing

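Of 179 member values under the alternatives, 177 stayed on the uncalled side. The exceptions were Jun and Atf3 in the deposited values, so the count of members called was 2 there and 0 under every other alternative, limma-voom and the replicate block included. Among fits on scaled values the lowest adjusted p was 0.0605 for Jun and 0.0756 for Ier3, both with the replicate block. Jun was positive in all 20 alternatives, and Ier3 was negative in 19 of 20.

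The count over all genes, 99, was 2703 as deposited, 33 with no filter, 61 at a mean FPKM of at least 5, 354 with array weights, 298 with the replicate block, 220 at an adjusted p under 0.1 and 20 (without KO replicate 1) to 97 (without WT replicate 1) with 1 library left out. It was 45 without KO replicate 3, 48 without WT replicate 2 and 54 without WT replicate 3. Factors over all rows above 0 in every library, chosen after seeing the data, gave 104. Deviations of same-numbered libraries correlated at 0.33, 0.47 and 0.02. KO replicates 1 and 2 correlated best with the WT library of their own number, and KO replicate 3 with WT replicate 1 (0.36). The labels state no pairing, so the numbers were not taken as pairs, and whether they mark pairs is unknown. The share of calls higher in KO was 44.4% after scaling, 98.0% as deposited, 55.9% after rescaling to TPM and 30.3% with no filter.

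Several list genes reported above as not called passed under an alternative. With the replicate block these were Dusp1 (adjusted p = 0.0292), Trib1 (0.0309), Plk2 (0.0491), Mmp13 (0.0475) and Ddit3 (0.0455), with array weights Plk2 (0.0366), Map3k5 (0.0324), Mmp13 (0.0440) and Ddit3 (0.0493), and after rescaling to TPM Ddit3 (0.0328). As deposited Cebpg, Atf2, Plk2, Trib1, Srf, Mapk14, Ddit3 and Sesn2 passed, all higher in KO.

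Some fold changes took the other sign. In the deposited values, whose median is 0.45, Fosl2 stood at 0.40, Junb at 0.53, Jund at 0.50, Egr1 at 0.48, Ier2 at 0.39, Ier3 at 0.095, Map3k5 at 0.074, Spred1 at 0.15 and Mmp14 at 0.047. With quantile normalization Junb was 0.056, Jund 0.0099 and Egr1 0.015. After rescaling to TPM Fosl2 was 0.0030, Junb 0.057, Jund 0.042 and Egr1 0.0175. With array weights Fos was -0.15 and Atf3 -0.017. With 1 library left out Fos ranged from -0.13 to 0.15, Junb from -0.19 to 0.041, Jund from -0.28 to 0.12, Egr1 from -0.23 to 0.057 and Atf3 from -0.088 to 0.21. The cause of these changes was not tested. Depth limits Fosb only, at 0 to 13 reads.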
